A study of Mus musculus with 2 samples.

Results

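Cell barcodes rich in mitochondrial transcripts were chosen by their own counts: every deposited barcode in which more than 10% of the gene UMIs came from the 13 protein-coding genes of the mitochondrial genome, whose symbols begin with mt-. A UMI (unique molecular identifier) marks 1 captured RNA molecule, and the multiplexing tags were kept out of the total. There were 169 such barcodes among 1903: 128 of 1149 (11.1%, exact binomial 95% interval 9.38 to 13.1%) in the library labelled wild type and 41 of 754 (5.44%, 3.93 to 7.30%) in the library labelled deficient. They were set against 1727 barcodes with at most 10% mitochondrial UMIs and at least 500 genes, 1018 in the first library and 709 in the second, called comparison barcodes here. The remaining 7 barcodes had neither and were not used.

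The cells were mouse CD8 T cells of the C57/B6N strain, taken from mesenteric lymph nodes with affinity beads and driven in culture with a Th17 kit (CytoBox) toward Tc17 cells, the CD8 T cells that make interleukin-17. All were then stimulated with 100 ng/ml PMA and 10 μg/ml ionomycin during 3 h, a pair that stands in for antigen receptor signalling. The study compared wild-type mice with Nfatc1 f/f × Cd4-Cre mice, in which Cd4-Cre, active from thymic development onward in both CD4 and CD8 lineages, is meant to delete the transcription factor gene Nfatc1. Each genotype label has 1 library from the 10x Genomics 3′ kit version 3.1, and nothing states whether animals were pooled, so differences between the libraries have no replicate check.

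The mitochondrial genome encodes core subunits of the respiratory chain and ATP synthase, and its messenger RNAs are made and translated inside the organelle, enclosed by 2 membranes. Cytosolic messenger RNA, by contrast, can leave a cell whose outer membrane has opened, and a barcode with a high mitochondrial share is commonly read as a damaged cell and discarded. RNA of the nucleus, such as the long non-coding RNA Malat1, is held behind a further envelope.

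Summed without mitochondrial genes, the wild-type-labelled members gave 346282 UMIs and the deficient-labelled members 119212, of which the 5 deepest barcodes held 15% and 36.4% of the sum. The comparison barcodes gave 23673106 and 17411915. Values below are counts per 1000000 UMIs of these sums (CPM). For the members 1 UMI equals 2.89 and 8.39 CPM, and a gene without UMIs could still lie at up to 8.66 and 25.2 CPM (3 counts). Intervals are given at the 95% level, for counting error alone. The targeted gene did not follow the labels: Nfatc1 stood at 46.2 CPM in wild-type-labelled and 302 CPM in deficient-labelled members (16 and 36 UMIs), and at 41.1 and 140 CPM in the comparison barcodes. A 3′ tag can lie outside the deleted part, so this checks neither label, and the libraries are named by their labels throughout. No barcode sequence was shared by the 2 libraries, which is no check on them if 1 tagged pool was split by its tags.

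T-cell markers led the marker levels of the members. Of 9 CD8 T-cell markers, all 9 had UMIs in the members of both libraries, and their summed level was 2368 CPM against 3614 CPM in comparison barcodes of the wild-type-labelled library and 2290 against 3384 CPM in the other. At least 1 of these markers was seen in 94.5% and 95.1% of members, and at least 3 in 59.4% and 61.0%, where the comparison barcodes, with about 10 times the UMIs, reached 99.6% and 99.4%. The B-cell list summed to 66.4 CPM in wild-type-labelled members against 58.0 CPM, and to 126 against 62.8 CPM in the other library, with Ms4a1 and Cd79b at 0 in the members, 1 UMI of Cd79a in the deficient-labelled library, and most of the UMIs from Cd74, which other immune cells also express. The 7 myeloid markers summed to 20.2 CPM against 3.38 and to 16.8 against 3.62 CPM, on 7 and 2 member UMIs of Cd68 and Csf1r; Lyz2, Tyrobp, Itgam, Adgre1 and Fcer1g were at 0. All 4 natural killer cell markers were at 0. No member carried 3 markers of any of the other 8 lists. The part of other cells or of free RNA in these UMIs was not tested.

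The members differed from the comparison barcodes in how much non-mitochondrial RNA they held, and hardly in how much mitochondrial RNA. Both quantities enter the rule that chose them and are given as a description. In the wild-type-labelled library the median member held 598 mitochondrial UMIs and the median comparison barcode 680.5. The other UMIs came to 1979.5 against 20185.5, a 10.2-fold gap. The deficient-labelled library showed the same picture, with 486 against 560 mitochondrial UMIs and 2183 against 20869 others, 9.56-fold apart. As means per barcode, members held 11.6% and 11.8% of the non-mitochondrial UMIs of a comparison barcode, and 99.7% and 110% of its mitochondrial UMIs. The members' mitochondrial share ran from 10.0% to 74.3% (median 22.8%) in the first library and from 10.9% to 48.3% (median 19.6%) in the second, against comparison medians of 3.17% and 2.69%.

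**Figure D1:**
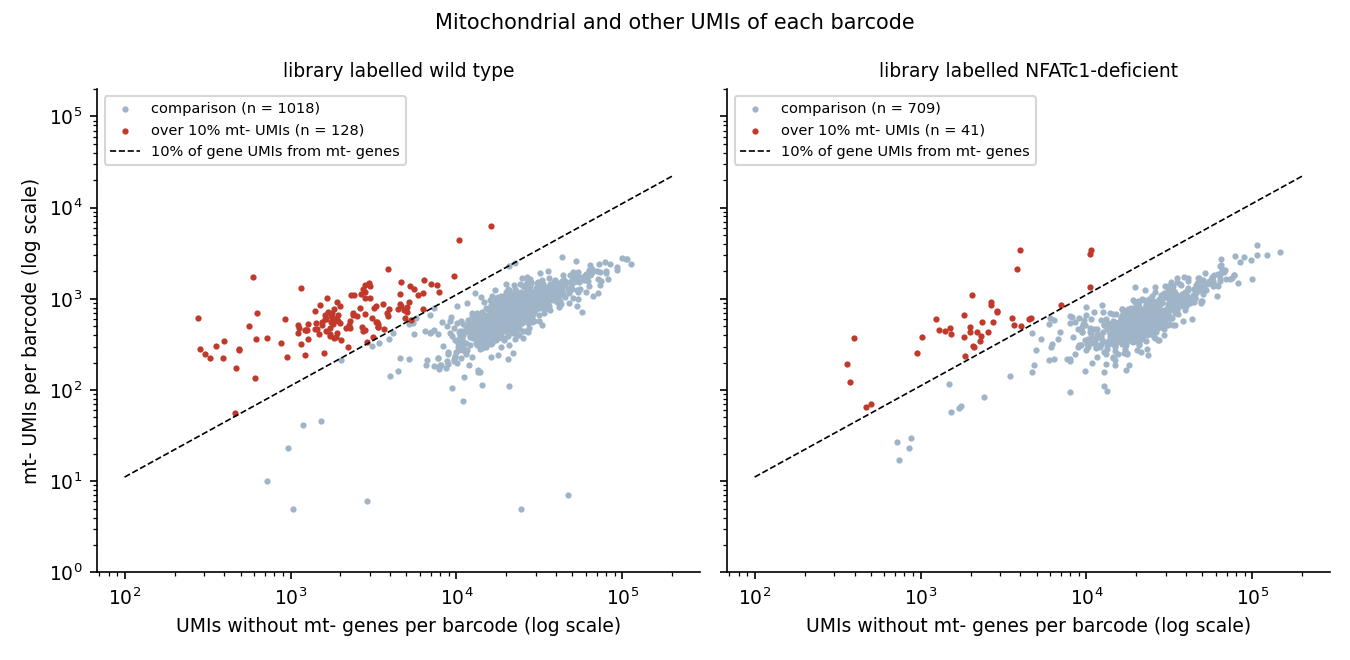
Mitochondrial UMIs (vertical, log axis) against all other gene UMIs (horizontal, log axis) of every barcode, 1 panel per library, with the 10% limit as a dashed line. Members lie left of the comparison barcodes at a like height: medians of 598 and 680.5 mitochondrial UMIs but 1979.5 and 20185.5 other UMIs in the wild-type-labelled library.

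The non-mitochondrial RNA of the members had another make-up. Malat1 took a median of 2.38% of the non-mitochondrial UMIs of wild-type-labelled members against 0.460% in comparison barcodes, and 2.31% against 0.516% in the deficient-labelled library. Transcripts of cytosolic ribosomal protein genes, which are among the most abundant messenger RNAs of a growing cell, took 7.88% against 31.3% and 6.77% against 24.9%. Malat1 exceeded the 95th percentile of comparison barcodes in 104 of 128 members (81.2%) and 30 of 41 (73.2%), and the ribosomal share lay under their 5th percentile in 116 (90.6%) and 36 (87.8%). Both held together in 103 and 30 members (80.5% and 73.2%), against 19 of 1018 and 12 of 709 comparison barcodes (1.87% and 1.69%). These percentile limits were chosen after the data were seen. The members were also not poor in kinds of transcript: at an equal 2000 UMIs without mitochondrial genes they showed a median of 1293 genes against 979, and 1237 against 999, with 65 and 17 members too shallow to enter.

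**Figure D2:**
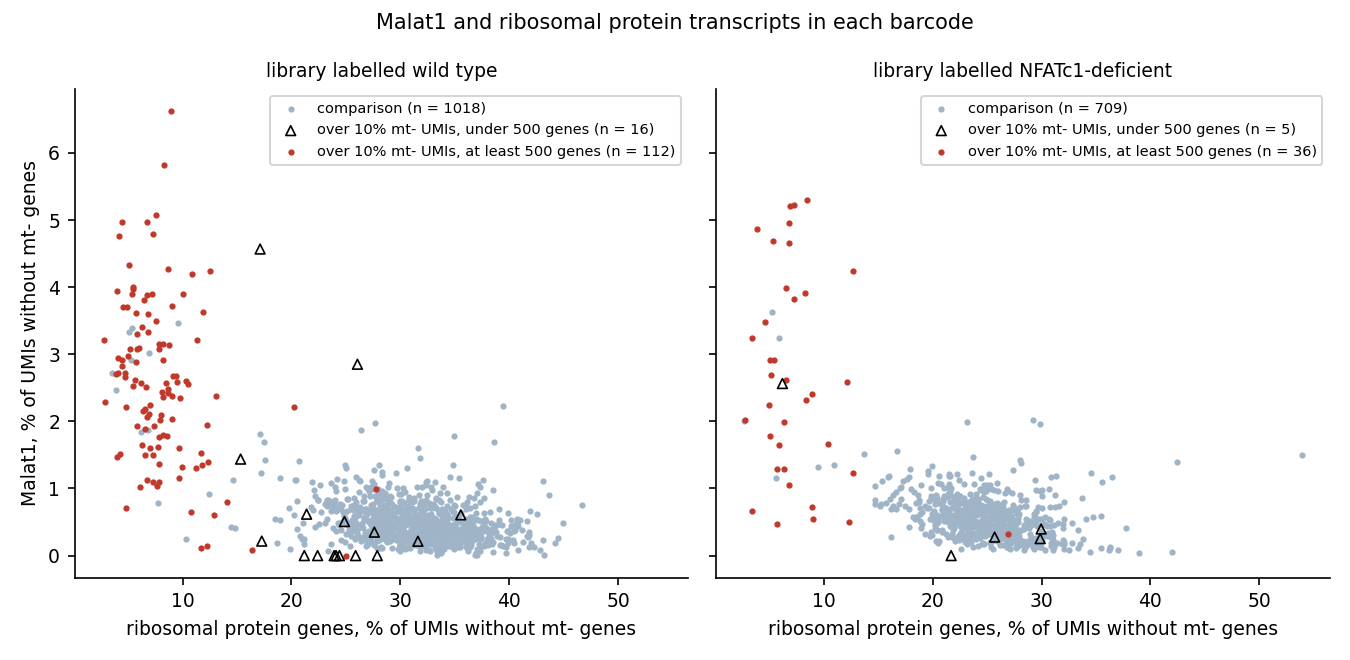
Share of ribosomal protein transcripts (horizontal) and of Malat1 (vertical) among the non-mitochondrial UMIs of every barcode, in percent, 1 panel per library; triangles are members with under 500 genes. Most members sit at the upper left (medians 7.88% and 2.38% in the wild-type-labelled library), and the 16 and 5 triangles sit apart, at higher ribosomal shares and low Malat1.

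The members were not uniform. In the wild-type-labelled library those with 10 to 15% mitochondrial UMIs had the highest median Malat1 share and the lowest ribosomal share (2.87% and 4.93%, 22 barcodes). At 15 to 25% the medians were 2.49% and 7.58% (51 barcodes) and at 25 to 50% they were 1.89% and 8.99% (51 barcodes). In the 4 barcodes above 50% they were 0.301% and 19.9%. The deficient-labelled library kept this order over its first 3 ranges, with Malat1 at 2.62%, 2.36% and 1.26% and ribosomal protein transcripts at 5.65%, 7.75% and 9.72% (15, 16 and 10 barcodes). Within the members, the mitochondrial share and the ribosomal share had a Spearman rho of 0.519 and 0.495, and the number of other UMIs and the ribosomal share −0.721 and −0.798, over 128 and 41 barcodes that share a library and whose measures share a denominator.

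A small set stood apart: members with under 500 genes (16 and 5) had ribosomal shares of 24.3% and 25.7% and Malat1 shares of 0.215% and 0.276%, near the comparison medians of 31.3% and 24.9% and below those of 0.460% and 0.516%. Their median tag counts were 6175.5 and 5283 UMIs, against 671 and 523.5 in the members with at least 500 genes (112 and 36). Near the limit the change was gradual in the wild-type-labelled library: 5 members at 10 to 11% had a median of 7.82% ribosomal transcripts and 1.77% Malat1, and 9 barcodes at 9 to 10% had 12.5% and 0.917%. In the deficient-labelled library the 14 comparison barcodes under 5000 UMIs had medians of 25.2% ribosomal transcripts and 0.627% Malat1. In the wild-type-labelled library the 14 such barcodes lay between the classes, at 13.6% and 0.685%.

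Within the mitochondrial total, the more abundant transcripts took similar proportions in both classes of the wild-type-labelled library and differed more in the deficient-labelled library. The cytochrome c oxidase subunit gene mt-Co3 and the ATP synthase subunit gene mt-Atp6 made up 21.4% and 19.8% of the mitochondrial UMIs of wild-type-labelled members, against 20.2% and 17.3% in comparison barcodes. In the deficient-labelled library mt-Co3 was 17.6% against 15.8% and mt-Atp6 19.4% against 16.4%. The gene furthest below the comparison in both libraries was mt-Co1, the catalytic oxidase subunit, with 17.5% against 20.9% (ratio 0.837, 0.824 to 0.850) and 19.0% against 28.1% (0.678, 0.660 to 0.696). The complex III gene mt-Cytb took 8.92% against 8.96% and 9.74% against 8.34%, and the complex I gene mt-Nd1 4.05% against 4.37% and 4.16% against 3.57%, so that the 2 libraries disagreed in sign for mt-Nd1. Another complex I gene, mt-Nd2, had ratios of 1.03 (1.002 to 1.059) and 1.32 (1.27 to 1.37). These ratios are of summed UMIs: the median mt-Nd2 count per barcode was lower in members, at 27.5 against 32 and 27 against 33. In the deficient-labelled library 1 member held 495 mt-Nd2 UMIs. All members had UMIs of mt-Co1, with medians of 124.5 and 126 per barcode. The rare mt-Nd6, the single protein-coding gene on the opposite mitochondrial strand, had ratios of 1.02 (0.838 to 1.23) and 2.11 (1.69 to 2.62) on 125 and 96 member UMIs. Of those 96 UMIs 33 lay in 1 barcode. In that library 31.7% of members had any mt-Nd6 UMI, against 47.2% of comparison barcodes. For mt-Atp8, which overlaps mt-Atp6, the ratios were 0.999 (0.914 to 1.09) and 1.54 (1.32 to 1.79).

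Nuclear-encoded genes were then compared between members and comparison barcodes within each library. By edgeR's quasi-likelihood test on the 4 sums with library as a block, 2239 of 3834 genes tested (58.4%) were higher in members at an adjusted p under 0.05 and 769 (20.1%) were lower. At least 2-fold in the same direction in both libraries were 1272 higher (33.2%) and 400 lower (10.4%), all of them among the called genes. The sign agreed between libraries for 3467 of the 3834 genes. A call did not require such agreement: Ccl1 was called (edgeR adjusted p 6.80e-09) with log2 ratios of −2.36 and 2.19 in the 2 libraries. These directions are relative to the total: the median gene had a log2 ratio of 0.87 while the ribosomal share of the total was lower in members. With TMM scaling, which centres most genes, the median was 0.12 and 1243 genes were higher and 1269 lower (49.5% of calls higher, against 74.4%). The 2-fold counts turned as well, to 167 higher and 798 lower. With 2 libraries the test has 1 residual degree of freedom, and barcodes of 1 library share a culture and a run.

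**Figure D3:**
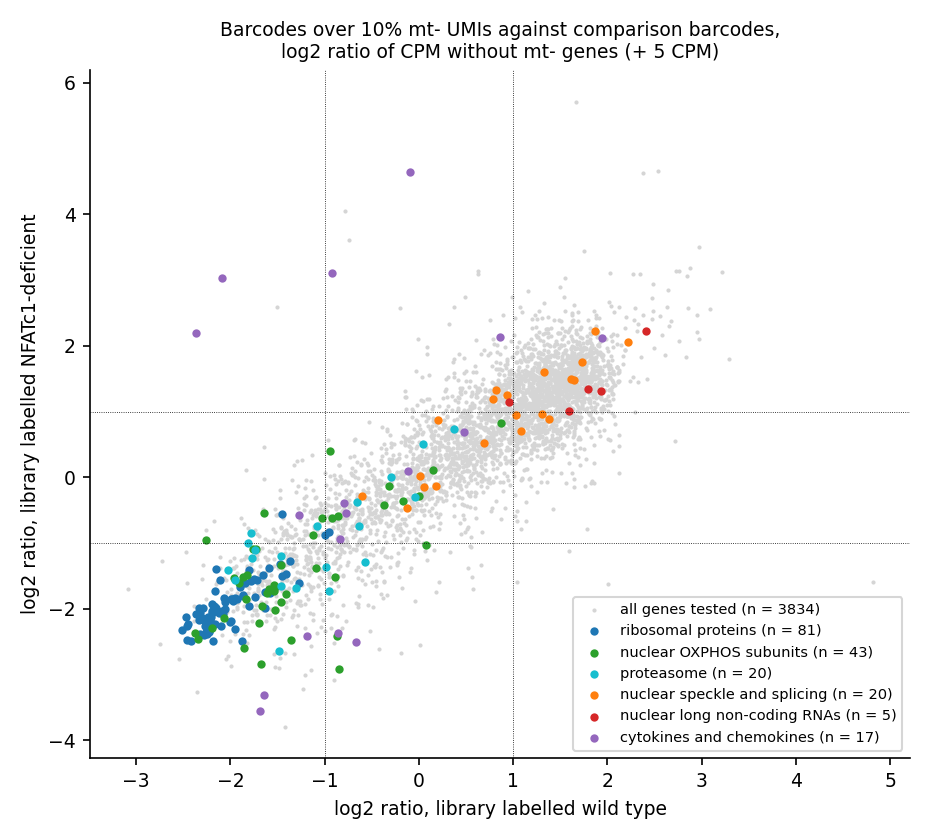
Log2 ratio of members to comparison barcodes (CPM with a pseudocount of 5) in the wild-type-labelled library (horizontal) and the deficient-labelled library (vertical), 1 point per gene tested, coloured by gene list, with dotted lines at 2-fold. The 3834 genes lie along the diagonal; the 81 ribosomal protein genes gather at the lower left around −2.09 and −2.0.

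Malat1 (chromosome 19, 5795690 to 5802672 in mm10) stood at 24162 CPM in wild-type-labelled members against 4547 CPM, and at 23697 against 5088 CPM in the deficient-labelled library, 5.31-fold (5.20 to 5.43) and 4.66-fold (4.48 to 4.84) higher. Both members' sums lay far above both comparison sums (edgeR log2 ratio 2.32, SE 0.0926, adjusted p 1.18e-124). Counted per barcode rather than as a share, a member held 61.8% and 55.1% of the Malat1 UMIs of a comparison barcode. Xist, the RNA that coats the inactive X chromosome, rose to 2767 and 2324 CPM from 551 and 493 CPM (log2 2.28), and per barcode at 58.4% and 55.8% of the comparison count. Of 10 listed RNAs that stay in the nucleus, 5 were tested and all 5 rose, where 58.4% of all genes tested did. Their median log2 ratios were 1.80 and 1.32, against 0.79 and 0.72 over all genes tested. Pvt1, the RNA of a locus beside Myc, was at 1230 and 1015 CPM against 318 and 405, and Kcnq1ot1, an imprinted antisense RNA, at 578 and 352 CPM against 189 and 172. Neat1, the scaffold of paraspeckles, was below the level for testing, at 80.9 CPM against 21.3 in the first library and 16.8 against 19.0 in the second, the latter on 2 UMIs.

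Splicing factors and genes whose introns are often kept in the nucleus rose in 15 of 20 cases and fell in 1, beside 58.4% and 20.1% of all genes tested (median log2 0.98 and 0.95). The edgeR median of the list, 1.03, lay 0.16 above that of all genes and was 0.28 under TMM scaling. Ogt, the enzyme that adds O-GlcNAc to proteins and is known for a retained intron, was at 1077 and 1015 CPM in members against 228 and 240 CPM (log2 2.17). The splicing kinase Clk1 was at 266 and 352 CPM against 69.1 and 71.2 (log2 2.10), while the splicing factor Srsf6 was lower at 121 and 185 against 187 and 227 CPM, a call lost in DESeq2 (log2 −0.48, adjusted p 0.159). Annotated long non-coding genes as a kind were higher in 71 of 90 (78.9%), with medians of 1.66 and 1.5.

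All 81 ribosomal protein genes fell, with median log2 ratios of −2.09 and −2.0, and 78 of them fell at least 2-fold in both libraries. Rps12 was lowest at 901 and 721 CPM against 4985 and 4027 CPM (log2 −2.47), and Rps15 least changed at 1432 and 1241 against 2780 and 2221 CPM (log2 −0.90). Per barcode, members held 2.86% and 3.08% of the ribosomal protein UMIs of a comparison barcode, against 11.6% and 11.8% of all non-mitochondrial UMIs. Translation factors went the same way in 18 of 20 (medians −1.41 and −1.47), among them Tpt1, a short and abundant messenger whose protein binds tubulin, at 1435 and 1434 CPM against 7507 and 6532 CPM (log2 −2.29). Proteasome subunits fell in 15 of 20 tested and rose in 1, with Psmb6 at 54.9 and 75.5 CPM against 226 and 233. For these lists, the shares over all genes tested were 20.1% lower and 58.4% higher.

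Respiratory chain genes encoded in the nucleus were mostly lower. Of 43 tested subunits of the respiratory chain and ATP synthase, 35 fell, 1 rose and 7 were not called (medians −1.53 and −1.54). Over all genes tested 20.1% were lower and 58.4% higher. Atp5e and Atp5g1, both ATP synthase subunits, were at 116 and 80.9 CPM in wild-type-labelled members against 621 and 432 CPM, and at 117 and 75.5 CPM against 624 and 436 CPM in the other library. Cox5b, an oxidase subunit assembled with the product of mt-Co1, was at 78.0 and 75.5 CPM against 374 and 389 CPM. The 1 that rose was Sdha, the large flavoprotein of complex II, at 95.3 and 83.9 CPM against 50 and 44.9 CPM, a call lost under TMM scaling (log2 0.17, edgeR adjusted p 0.636). Per barcode, members held 4.81% and 4.69% of these transcripts, against 11.6% and 11.8% of all non-mitochondrial UMIs; the mitochondrially encoded counts entered the choice of members and are not set against them.

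Other lists with products in the mitochondrion are given beside the 58.4% higher and 20.1% lower of all genes tested. Mitochondrial ribosomal proteins fell in 27 of 42 tested and rose in 1, the import and dynamics list fell in 12 of 23 and rose in 3, and factors of mitochondrial gene expression rose in 5 of 8 and fell in 1, shares near those of all genes. Among the last, Pnpt1, an RNA-degrading enzyme, was at 110 and 185 CPM against 37.0 and 46.3 CPM (log2 1.75), and Ptcd3, which binds the small mitochondrial ribosomal subunit, at 260 and 235 against 74.3 and 76.3. Slirp, a short gene that stabilises mitochondrial messengers, fell to 26.0 and 41.9 CPM from 88.7 and 86.9. The outer-membrane import receptor Tomm20 fell (log2 −1.44) and the fission GTPase Dnm1l rose (log2 1.36), and the median of the import list of −0.45 and −0.31 (−0.53 for the mean of both libraries) became 0.10 for that mean when only comparison barcodes under 10000 UMIs were used.

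The direction followed the genomic span of a gene, a description made after the data were seen. Among protein-coding genes under 5 kb from start to end, 78.5% were lower and 5.03% higher (358 genes, median log2 −1.40 and −1.36). From 5 to 20 kb 40.5% were lower and 20.3% higher, and from 20 to 50 kb 7.85% and 62.4%. Over 100 kb, 0.467% were lower and 98.1% higher (642 genes, median 1.55 and 1.44). Span and log2 ratio had a Spearman rho of 0.761 and 0.714 across 3739 genes, which are not independent replicates, and exonic length 0.652 and 0.611. With TMM scaling the order of the 5 medians was the same around a lower centre, from −2.20 to 0.85, and with only comparison barcodes under 10000 UMIs it ran from −1.26 to 1.30. In single barcodes, genes over 50 kb took a median of 36.9% and 39.8% of the members' non-mitochondrial UMIs, against 14.8% and 16.2%. No source used here states whether intronic reads were counted, and their part in the difference was not tested.

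**Figure D4:**
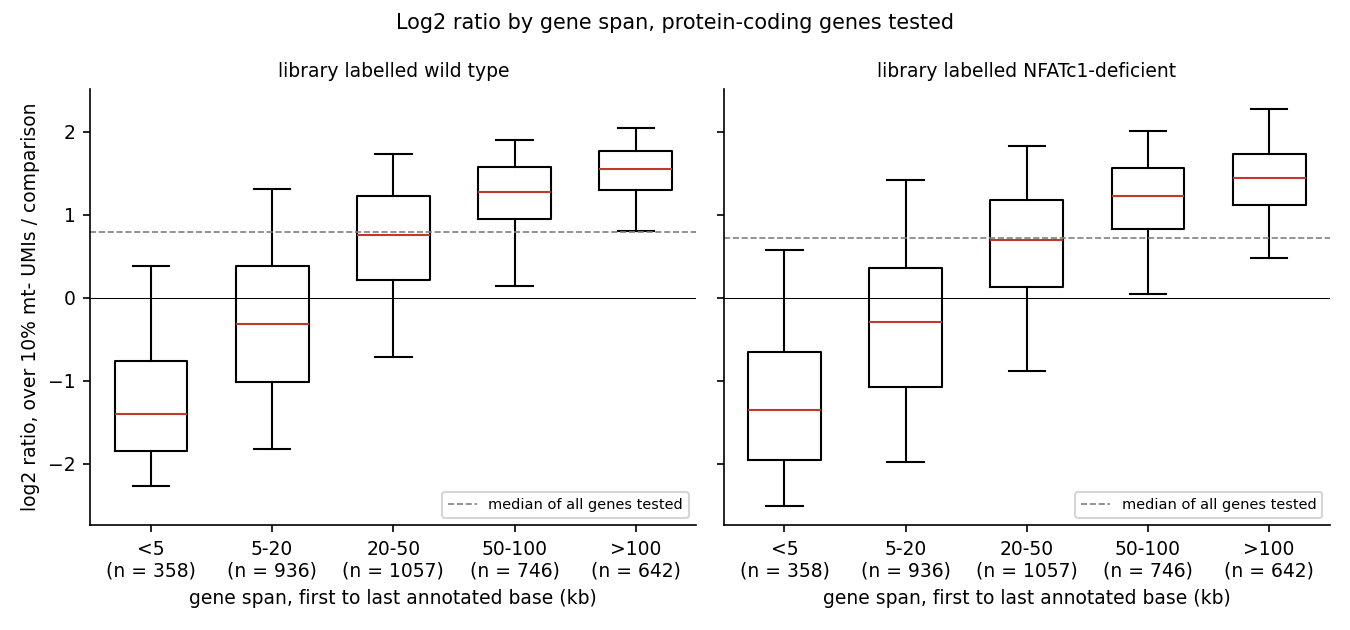
Log2 ratio of members to comparison barcodes by genomic span of protein-coding genes, 1 panel per library and 1 box per span range. Boxes are quartiles, whiskers the 5th to 95th percentiles, and the dashed line the median of all genes tested in that library. Medians climb from −1.40 and −1.36 under 5 kb to 1.55 and 1.44 over 100 kb.

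The 15 named genes with the largest rises, picked by size from these data, held several loci that overlap another gene on the opposite strand. These were 13 of 15, against 1410 of 3832 tested genes with coordinates (36.8%). Among all genes at least 2-fold higher in both libraries the share was 42.4%. The 15 had a median span of 82555 bases, against 33337 over the tested genes with coordinates. They also held Tsix and Xist, which overlap each other. The part of such overlap in the rises was not tested. Lrrc4, a synaptic adhesion gene that lies inside Snd1, was at 835 and 738 CPM in members against 85.3 and 80.6 CPM, 9.78-fold (8.62 to 11.1) and 9.16-fold (7.30 to 11.4) higher (edgeR log2 3.25, SE 0.189, adjusted p 1.21e-61). Tsix, the antisense partner of Xist, was at 537 and 302 CPM against 58.7 and 47.0. Taco1, which activates translation of mt-Co1, was at 104 against 13.8 CPM and 419 against 11.7 CPM, but 72.0% of its UMIs in the deficient-labelled members came from 1 barcode. Filip1l was at 263 and 344 CPM against 40.4 and 58.4, and Fgfr2, a growth factor receptor gene, at 144 and 193 against 25.8 and 32.5. The Fgfr2 entry spans 2960900 bases and overlaps 48 annotated genes, 22 of them on the same strand. Its UMIs can therefore not be read as the receptor transcript alone. The clathrin adaptor gene Hip1, with no such overlap, was at 173 and 151 CPM against 31.3 and 21.2.

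The named genes with the largest falls included genes of cytosolic and of mitochondrial proteins. Pfn1, the actin-binding profilin, was at 254 and 210 CPM against 1511 and 1458 CPM (edgeR log2 −2.65, SE 0.186, adjusted p 4.06e-43), 5.95-fold (4.83 to 7.42) and 6.95-fold (4.71 to 10.7) lower. Among the mitochondrial ones were the respiratory subunits Uqcrh (159 and 126 CPM against 682 and 573) and Ndufc1 (31.8 and 16.8 against 147 and 143). The import chaperone Timm8b and the mitochondrial ribosomal protein Mrpl35 were there too. The Ndufc1 values of members rested on 11 and 2 UMIs. The spliceosome protein Snrpf was at 150 and 109 CPM against 654 and 596. Gzmb, the cytotoxic protease granzyme B, was at 20.2 and 75.5 CPM against 123 and 767 CPM, on 7 and 9 member UMIs. The actin and tubulin list fell in 13 of 19 tested and rose in none (medians −0.87 and −0.63), with the thymosin gene Tmsb10 at 505 and 403 CPM against 2244 and 1230. Over all genes tested 20.1% were lower and 58.4% higher.

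Of 8 cytokine, chemokine and effector genes fixed for naming, all were lower in members, although the cytokine list as a whole held calls in both directions. Il17a, the signature cytokine of Tc17 cells, was at 6726 CPM in wild-type-labelled members against 11458, and at 2517 against 3672 CPM in the deficient-labelled library (edgeR log2 −0.66, adjusted p 7.52e-09). Il17f was at 4921 against 8525 and 3087 against 4045 CPM (log2 −0.60). Both falls depended on the comparison: against comparison barcodes under 10000 UMIs, Il17a was higher by 0.73 and Il17f by 1.19 on the log2 scale (adjusted p 0.0138 and 1.06e-05, edgeR).

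The T-cell growth factor Il2 was at 3151 against 7618 CPM and 6618 against 9891 CPM (log2 −0.93). Ifng, encoding interferon-γ, was at 595 against 1363 and 1418 against 7574 CPM (log2 −1.80), with 3 barcodes holding 49.5% and 66.9% of the members' Ifng UMIs. The chemokine genes Ccl4 (2071 against 6647 and 3137 against 36809 CPM), Xcl1 (1987 against 6233 and 3020 against 29890 CPM) and Ccl3 (534 against 852 and 1342 against 7637 CPM) fell too. Without the library block, 5 of these calls were lost in edgeR: Il17a (adjusted p 0.366), Il17f (0.209), Il2 (0.0946), Ifng (0.0632) and Ccl3 (0.100). Against comparison barcodes under 10000 UMIs the fall of Il2 was lost too (log2 −0.24, edgeR adjusted p 0.0889). Of 17 tested cytokine genes 3 were at least 2-fold lower in both libraries and 1 higher, beside 10.4% and 33.2% of all genes tested. By edgeR calls 9 fell and 7 rose, beside 20.1% lower and 58.4% higher of all genes tested. Those that rose included the CD30 ligand gene Tnfsf8 at 817 and 2500 CPM against 208 and 571 (log2 2.05). Of the members' Tnfsf8 UMIs, 34.3% and 65.4% lay in 3 barcodes. They also included Il13, whose 34 UMIs, all in the deficient-labelled library, came from 1 barcode.

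Genes of the antigen receptor and of T-cell state split. Their list counts stand beside 58.4% higher and 20.1% lower of all genes tested. Cd8a was at 133 and 134 CPM against 126 and 162 (edgeR adjusted p 0.849), Cd8b1 at 303 and 201 against 346 and 404 (adjusted p 0.0258) and Cd3e at 144 and 185 against 191 and 253 (adjusted p 0.0782). Under TMM scaling Cd8a (log2 −0.80) and Cd3e (−1.18) were called lower, and in DESeq2 the call for Cd8b1 was lost (adjusted p 0.0719). Over the T-cell receptor and CD8 list 8 of 20 rose and 6 fell. The costimulatory receptor gene Cd28 was at 104 and 159 CPM against 31.3 and 44.6, with 27.8% and 63.2% of its member UMIs in 3 barcodes. The receptor chain gene Trbc2 was at 554 and 403 against 1093 and 989. Of 9 tested genes of naive and quiescent T cells 7 rose and 1 fell, and their edgeR median lay 0.44 above that of all genes tested. The repressor gene Bach2 was at 5747 and 4639 CPM against 1740 and 1423 (log2 1.71), the forkhead factor gene Foxo1 at 514 and 394 against 170 and 105, and the one that fell, Id3, at 34.7 and 25.2 against 138 and 44.6. Cd4 was not tested, with 2 and 5 UMIs in 2 and 3 members.

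Type 17 genes rose in 6 of 12 tested and fell in 3, near the 58.4% and 20.1% of all genes tested, with an edgeR median of 0.38 that became −0.37 under TMM scaling. Ahr, the ligand-activated receptor of type 17 cells, was at 205 and 453 CPM against 71.1 and 123, Il1r1 at 101 and 75.5 against 23.2 and 24.5, and the early factor Batf at 75.1 and 67.1 against 152 and 121. The Il1r1 value of deficient-labelled members rested on 9 UMIs, 5 of them in 1 barcode. Calcium and NFAT signalling genes rose in 10 of 12 tested and fell in 1 (medians 1.02 and 1.13). Itpr1, the calcium channel of the endoplasmic reticulum, was at 251 and 545 CPM against 56.1 and 91.3 (log2 2.36), and Dyrk1a, a kinase that phosphorylates NFAT, at 159 and 344 against 45.7 and 56.0. Nfatc1 itself had an edgeR log2 ratio of 0.72 (adjusted p 0.0107) that became −0.034 under TMM scaling.

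The stress and death lists showed no common direction. The BCL2 family and caspase list rose in 8 of 14 tested and fell in 3, which is the background of 58.4% and 20.1% over all genes tested, with Bcl2, which protects from death, at 751 and 528 CPM against 189 and 160, and Bax, which promotes it, at 89.5 and 50.3 against 166 and 169. The p53 list rose in 2 of 6 and fell in 2, with a median of 0.43 that was −0.32 under TMM scaling: Mdm2 was at 113 and 117 CPM against 61.3 and 58.1 (log2 0.17 and not called under TMM scaling) and Cdkn1a at 17.3 and 67.1 against 95.9 and 109. Targets of ATF4 rose in 2 of 10 and fell in 2, cytosolic heat shock genes rose in 1 of 8 and fell in 3, and endoplasmic reticulum chaperones rose in 8 of 16 with none lower, although their median of 0.39 was −0.36 under TMM scaling. Antioxidant and iron genes fell in 11 of 15 and rose in 2; the thioredoxin gene Txn1 was at 231 and 218 CPM against 816 and 714, and Gclc, for glutathione synthesis, at 110 and 117 against 36.3 and 43.6.

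In metabolism, glycolysis and hypoxia genes fell in 8 of 17 tested and rose in 6. The short, abundant Gapdh was at 240 and 260 CPM against 1083 and 808, and Hk2, for the first step of the pathway, at 635 and 470 against 205 and 188. Sterol and fatty acid genes rose in 7 of 11 and fell in 2, near the shares of all genes tested (58.4% and 20.1%), with Acaca, for the committed step of fatty acid synthesis, at 387 and 277 CPM against 98.8 and 95.5. Interferon response genes fell in 6 of 7 tested, among them Slfn2 (295 and 386 CPM against 917 and 1061), and rose in 1. The 3 loci whose reads overlap ribosomal RNA all rose, AY036118 by 1.49 and Gm26917 by 1.91 on the log2 scale, the latter not called against comparison barcodes under 10000 UMIs (0.78). Gm42418 rose by 0.24, which was −0.51 under TMM scaling. Early response genes rose in 7 of 22 and fell in 4 (median 0.08, −0.67 under TMM scaling), and cytotoxic genes fell in 3 of 7.

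The difference between the libraries was in several cases smaller among members. With 1 library per label these folds carry no test, and none was made of the gap between the classes. Ccl4 exceeded its wild-type-labelled level 5.54-fold among deficient-labelled comparison barcodes and 1.52-fold (1.33 to 1.72) among members, and Xcl1 was 4.80-fold and 1.52-fold (1.33 to 1.73) higher. Ccl3 went from 8.96-fold to 2.51-fold (2.02 to 3.12) and Ifng from 5.56-fold to 2.38-fold (1.93 to 2.93). Il2 went the other way, from 1.30-fold to 2.10-fold (1.91 to 2.30), and Nfatc1 from 3.40-fold to 6.54-fold (3.54 to 12.6). Il17a was lower in the deficient-labelled library in both classes, at 0.320 and 0.374 (0.331 to 0.422) of the wild-type-labelled level, and Il17f at 0.474 and 0.627 (0.559 to 0.703). Malat1 was near parity at 1.12 and 0.981. Some of these folds rested on a part of the members: among those over 15% mitochondrial UMIs the fold was 1.21 for Ifng, 1.25 for Il2 and 3.39 for Ccl3, and as a mean of per-barcode CPM, in which each barcode weighs the same, it was 0.918 for Il17f and 0.561 for Il17a.

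**Figure D5:**
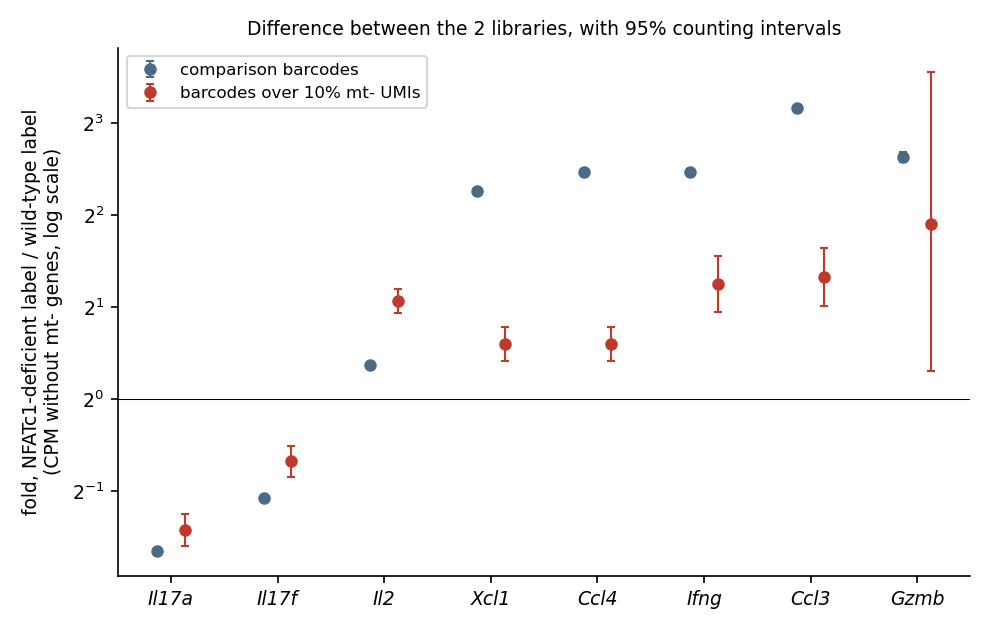
Ratio of the deficient-labelled to the wild-type-labelled library (vertical, log2 axis) for 8 cytokine and effector genes, in comparison barcodes and in members, with 95% counting intervals. Ccl4, Xcl1, Ccl3 and Ifng lie nearer 1 among members, whereas Il2 lies further from 1 (1.30 and 2.10).

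Thinning every barcode to 2000 UMIs gave shares that did not mirror the CPM. At least 3 Il17a UMIs were found in 66.7% of 63 wild-type-labelled members and 60.9% of 1013 comparison barcodes, and in 12 of 24 and 23.5% of 701 in the other library, although the CPM of Il17a was lower in members, so no order is read from them; the part of free RNA in such shares was not tested. For Ifng the shares were 6.35% against 8.29% and 16.7% against 41.5%. At least 3 Xist UMIs were found in 74.6% against 12.5% and 70.8% against 10.8%, and at least 3 UMIs of the actin gene Actb in 17.5% against 71.0% and 25% against 56.5%.

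When all barcodes with at least 500 genes were clustered without mitochondrial genes, the members gathered in a few clusters. A cluster led by Mmp10, Ermn and Il24 held 91 of 112 wild-type-labelled members (81.3%) and 11 of 36 deficient-labelled ones (30.6%), against 27.5% and 1.41% of the comparison barcodes. Leading genes were taken over all barcodes of a cluster, here 290 comparison barcodes and 102 members, and do not describe the members. Mmp10 UMIs were seen in only 7 of all 128 wild-type-labelled and 4 of all 41 deficient-labelled members. A cluster led by Areg, Samd4 and Camk2d, mostly of the deficient-labelled library, held 17 of its 36 members (47.2%), and the cluster led by histone genes such as Hist1h1b held none. At a finer resolution of 1.0, 100 members fell into a cluster of 130 barcodes (76.9%). CMO303 was the leading multiplexing tag in all members and comparison barcodes of the wild-type-labelled library, and CMO304 in all of the other. This is fixed in advance if barcodes were assigned to the libraries by tag, so it checks neither label. CMO303 made up 93.3% of the tag UMIs of wild-type-labelled members and CMO304 96.3% of those of deficient-labelled members, against 85.8% and 91.2% in comparison barcodes. Median tag counts were 712.5 against 520.5 and 565 against 573, while the comparison barcodes held 7.97- and 8.18-fold more gene UMIs in the median.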

How the data were processed

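The deposited matrices hold raw UMI counts for each gene and barcode; the file headers name Cell Ranger 7.0.0, and the alignment was to mm10 per the submitters' processing notes; the annotation and the treatment of introns are not stated. Counts of 12 multiplexing tags were kept out of all totals. The members and gene lists were chosen with earlier results of these data known. Counts without mitochondrial genes were summed over members and over comparison barcodes of each library, and genes with a mean of at least 50 CPM over the 4 sums were tested with edgeR 4.0.16 (quasi-likelihood test, library as a block, no further scaling, Benjamini-Hochberg adjustment over 3834 genes; R 4.3.3). Log2 ratios use a pseudocount of 5 CPM, which understates changes of low genes. No doublet caller was run. Genes named were fixed genes, the 2 highest and 2 lowest of each list, and the 15 largest in each direction past 2-fold in both libraries, without ribosomal protein, receptor segment and unnamed genes; a few others (such as Xist, Tsix and Actb) and the span, strand and percentile descriptions were chosen after values were seen. Some genes are not reported here. Coordinates are GENCODE M21 (mm10), which held 32158 of 32285 gene identifiers. Barcodes were thinned to 2000 UMIs without replacement, and clustered with scanpy 1.11.5 and igraph 0.11.9 (Leiden, resolution 0.6). Alternatives were TMM scaling, DESeq2 1.42.0, other filters, totals, limits, pseudocounts and subsets. On simulated counts for members against comparison barcodes, 0 of 3634 unchanged genes were called, and 6, 23, 43 and 47 of 50 genes changed 1.5-, 2-, 3- and 4-fold. The simulation gave all genes 1 dispersion (0.0167) and left most genes unchanged. It therefore does not measure false calls in the real sums, where the median gene had a log2 ratio of 0.87. Other computations used NumPy 2.4.6, pandas 2.3.3 and SciPy 1.17.1 under Python 3.11.15.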

Additional observations from a re-analysis of the deposited data

Results flagged for a closer look

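In 7 genes tested the members moved at least 2-fold in opposite directions in the 2 libraries. This difference between libraries was not tested, and most of these genes rested on few member UMIs. Dqx1, Ccl1, Olfr1369-ps1, 4933406I18Rik and Csf2 were still among the genes called (edgeR adjusted p 2.60e-17 to 0.0085), so a call alone does not show that a change repeated. Csf2, encoding the growth factor GM-CSF, had a log2 ratio of −2.09 in the wild-type-labelled library (5 UMIs) and 3.04 in the deficient-labelled library, where 29 of 31 UMIs lay in 1 barcode. The chemokine gene Ccl1 had −2.36 (3 UMIs) and 2.19, with 325 of 329 UMIs in 1 barcode. Mmp10, a matrix metalloproteinase gene, had −1.51 on 21 UMIs, 76.2% of them in 3 barcodes, and 2.59 on 14 UMIs, 71.4% of them in 1 barcode. Dqx1, a helicase-like gene, had 4.81 on 93 UMIs, 58.1% of them in 1 barcode, and −1.59 in the deficient-labelled library, where members had 0 UMIs and the 25.2 CPM that 3 counts would give exceeds the comparison level of 10.1 CPM. The uncharacterised 4933406I18Rik had 1.60 and −1.11 (59 and 2 UMIs), the pseudogene Olfr1369-ps1 had 2.0 and −1.63 (124 and 1 UMIs), and Ms4a6b, a membrane-spanning protein gene of T cells, had 1.04 and −1.60 (31 and 2 UMIs).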

How the results depend on the processing

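Counts of called genes moved mainly with scaling and with the level a gene needed to be tested. Higher calls numbered 1243 with TMM scaling, 1173 with DESeq2 size factors, 3564 without a filter, 3485 from 20 CPM and 1143 from 100 CPM, the last 3 over other numbers of genes tested; lower calls numbered 1269, 1263 and, against comparison barcodes under 10000 UMIs (added after the data were seen, as were members under 5000 UMIs), 464. Past 2-fold in both libraries, higher genes numbered 167 (TMM), 160 (size factors), 761 (mitochondrial genes in the total), 2254 (no filter), 696 (100 CPM) and 841 (comparison under 10000 UMIs), and lower genes 798, 795 and, as means of per-barcode CPM, 258. In 1 library alone, 1535 to 1671 were higher and 516 to 542 lower. Of 31 lists, 15 had a median above 0, and 8 with TMM or size factors; 7 exceeded the median of all genes, and 15 without a filter.

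The share of members at limits of 5, 15 and 20% was 16.5, 9.23 and 6.70% in the wild-type-labelled library and 8.89, 3.45 and 2.52% in the other; with tags in the total the first was 9.23%. Thinned to 1000 or 5000 UMIs, the shares with 3 Il17a UMIs were 48.1 and 81.3% in wild-type-labelled members, 56.6 and 64.7% in their comparison (75.5% unthinned), 25.7 and 25% in deficient-labelled members, and 27.1% at 5000 in their comparison (51.9% unthinned). For Ifng the comparison shares were 6.10, 11.3 and 18.7% unthinned, and 35.9, 46.3 and 51.6% unthinned. At cluster resolution 0.3 1 cluster held 90.2% of wild-type-labelled members. Between libraries, members over 15% gave 0.453 for Il17a, 0.544 for Il17f, 1.21 for Ifng, 1.25 for Il2 and 3.39 for Ccl3; means of per-barcode CPM gave 0.561, 0.918, 1.67 and 1.84 for the first 4 and 1.77 for Ccl4.

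Of 1371 values of 109 genes under 13 settings, 1282 kept direction and call, 70 lost the call, 5 gained it and 14 reversed. The reversed log2 ratios against comparison barcodes under 10000 UMIs were 0.73 for Il17a, 1.19 for Il17f, 0.014 for Cd8a, −0.15 for Fosb, −1.64 for Fos, −0.82 for Gm42418 and −1.02 for Cd74; Cd8a also reached 0.22 and 0.39 at limits of 15 and 20%, Nfatc1 −0.034 with TMM and −0.032 with size factors, and Gm42418 −0.51 with both and −0.058 with mitochondrial genes in the total. The causes were not tested. No paired analysis was possible beyond the library block, because each genotype label has 1 library. Depth limits the members: a gene at 50 CPM gives few UMIs in 119212.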
